A study of Mus musculus with 16 samples.

Results

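Oxidative phosphorylation is carried out by the respiratory chain and ATP synthase, which are described here at the level of their transcripts in cultured mouse hepatocytes. The members were chosen by gene name: the mitochondrial genes mt-Nd, mt-Co, mt-Cytb and mt-Atp, and the nuclear genes Ndufa, Ndufb, Ndufc, Ndufs, Ndufv, Sdha to Sdhd, Uqcr, Cyc1, Cox4 to Cox8 and Atp5. They numbered 102 of the 55416 genes in the table, 13 encoded in mitochondrial DNA and 89 in the nucleus. The rule set aside 9 genes, Ndufa4l2 and 8 with names of pseudogenes. RNA of primary hepatocytes was sequenced from stranded libraries of total RNA in 16 samples, 4 in each of 4 groups. FLOX cells (genotype label Alb-cre-) and HKO cells (Alb-cre+, with Cre recombinase driven by the albumin promoter, which is active in hepatocytes) came from a cross made to delete Smpd3, a neutral sphingomyelinase gene, in hepatocytes. Both genotypes were kept for 24 h with vehicle or with palmitic acid, a saturated fatty acid, at 0.4 mM. The labels give no age, sex or strain and do not say whether the replicates are separate mice or cultures, so the spread behind each p-value is that of these samples and may be technical.

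The chain moves electrons from NADH and succinate to oxygen through complexes I to IV and pumps protons out of the matrix, and complex V uses the proton gradient to make ATP. Complex II is wholly nuclear encoded, while the core of each of the other complexes joins mitochondrially encoded subunits, translated inside the organelle, to imported nuclear ones. Hepatocytes are rich in mitochondria and draw on this system for gluconeogenesis, urea synthesis and the oxidation of fatty acids such as palmitic acid.

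Values are TPM, a length-adjusted share of a sample's transcripts, so that levels of different genes can be roughly compared. The adjustment is less certain for very short transcripts, such as those of mt-Nd4l and mt-Atp8. The unit does not retain the sequencing depth, which is unknown here. Smpd3 stood at 31.98 ± 4.1 and 46.02 ± 2.4 TPM in FLOX cells with vehicle and palmitic acid and at 5.29 ± 0.71 and 7.82 ± 1.1 in HKO cells (mean ± SD, n = 4, as for all TPM means here). Hepatocyte markers (7 genes, Alb among them, all tested) summed to 55337 to 55995 TPM in FLOX cells with vehicle and 43367 to 44886 with palmitic acid, and to 58602 to 59759 and 45143 to 46556 in HKO cells. Cholangiocyte markers (5 genes) summed to 180 to 191 and 197 to 242 TPM in FLOX and 298 to 324 and 338 to 386 in HKO cells. Of the 4 tested cholangiocyte genes, 2 were higher and 2 lower with palmitic acid in either genotype (limma adjusted p under 0.05). In HKO against FLOX cells with vehicle, 2 of them were higher and 1 lower, and 4 hepatocyte genes were higher and 1 lower. Of all genes tested, 4.11% were higher and 7.56% lower in that comparison. With palmitic acid 23.0% were higher and 11.5% lower in FLOX and 29.4% and 13.1% in HKO cells. The sums of stellate cell (6 genes), lymphocyte and neutrophil (6) and endothelial (6) markers were at most 2.02, 0.46 and 5.46 TPM in any sample. Macrophage markers (7 genes, of which 5 had a mean under 1 TPM) summed to 84.4 to 93.0 TPM in FLOX cells with vehicle and 159 to 172 with palmitic acid, and to 101 to 113 and 200.3 to 239.6 in HKO cells. The part of these markers in the differences between groups was not tested, and fewer cells of a type and less RNA per cell cannot be told apart in such samples. The libraries numbered 1 of both FLOX groups stood apart in how long and short transcripts were represented: with genes split by length into 4 classes of equal size, the median deviation of the longest class minus that of the shortest, on the log2 scale, was 0.057 in the vehicle library and -0.11 to -0.059 in the other 3 vehicle samples. In the palmitic acid library it was -0.14, and the other 3 samples with palmitic acid lay between 0.022 and 0.069.

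A gene was tested if it reached 1 TPM in at least 4 of the 16 samples, which 92 members did, all 13 mitochondrial and 79 nuclear. The 10 others were never above 1.59 TPM. They were Ndufa11b, Ndufs6b, a further row named Atp5o, and the subunit isoforms Cox4i2, Cox6a2, Cox6b2, Cox6c2, Cox7b2, Cox8b and Cox8c, several of which are typical of muscle, lung or testis. Of the isoform pairs of complex IV, the widespread form prevailed: Cox4i1 averaged 863 ± 12.9 TPM in FLOX cells with vehicle while Cox4i2 was at most 0.11 TPM in any sample. Cox6a1 averaged 808 ± 12.2, Cox6b1 668 ± 41.4, Cox7a2 191 ± 8.8, Cox7b 168 ± 20.7 and Cox8a 439.7 ± 14.8 TPM. Cox7a1, the heart and muscle form of subunit 7a, was detected at 2.69 ± 1.6 TPM.

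Mitochondrial transcripts dominated. The 13 summed to 88955 ± 1577 TPM in FLOX cells with vehicle, and the 89 nuclear members to 20154 ± 457. In order of their mean over the 16 samples, the most abundant was mt-Co1, the catalytic subunit of complex IV, at 31450 TPM. The most abundant nuclear members were Atp5b, the catalytic β subunit of complex V, at 1383 TPM, Cox4i1 of complex IV at 849, Uqcr10 of complex III at 638, Ndufb9 of complex I at 263 and Sdhd, a membrane anchor of complex II, at 154. The median tested nuclear member stood at 110 TPM in complex I, 131 in II, 312 in III, 408 in IV and 333 in V. The least abundant tested nuclear members were Ndufb4 (28.97), Sdhc (65.5), Uqcrc2 (131), Cox7a1 (2.25) and Atp5s (6.18).

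The order among the mitochondrial genes cannot be taken at face value, because several have near-identical copies in the nuclear genome to which the deposited table also gives reads. The first 60 bases of mt-Co2 and of its copy, and bases 1063 to 1152 of mt-Co1 beside its copies, are shown because they show how little there is to tell them apart (from the GENCODE M21 transcripts, 5′ to 3′, with capitals for bases that differ from the mitochondrial gene).
mt-Co2: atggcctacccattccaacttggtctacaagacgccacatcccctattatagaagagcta
Gm28661: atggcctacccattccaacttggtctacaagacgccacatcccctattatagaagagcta
mt-Co1: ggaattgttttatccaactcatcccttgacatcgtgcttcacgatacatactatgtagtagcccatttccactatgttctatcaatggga
Gm29216: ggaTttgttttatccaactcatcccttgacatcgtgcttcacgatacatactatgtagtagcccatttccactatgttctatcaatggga
Gm13340: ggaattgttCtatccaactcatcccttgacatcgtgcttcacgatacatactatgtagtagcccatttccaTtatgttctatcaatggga
The copy Gm28661 matches all 681 bases of its alignment with mt-Co2, and Gm28437 (783 bases, mt-Co3), Gm10925 (678 bases, mt-Atp6) and Gm10222 (294 bases, mt-Nd4l) are likewise identical. Gm28438 differs from mt-Nd3 at 1 of 345 bases, Gm29216 from mt-Co1 at 1 of 483, and Gm13340 from mt-Co1 at 37 of 1545. In the GENCODE M21 annotation Gm13340 lies on chromosome 2 and the others on chromosome 1.

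For mt-Co2, mt-Co3 and mt-Atp6 the copy held most of the signal. mt-Co2 stood at 425, 335, 369 and 319 TPM in the 4 FLOX vehicle samples while Gm28661 stood at 12731, 13586, 14048 and 13074. The member's share of the pair was 2.38% to 5.19% over the 16 samples for mt-Co2, 1.53% to 10.3% for mt-Co3 and 6.77% to 16.6% for mt-Atp6, so that a small shift between both names makes a large change in the member's own value. For mt-Nd4l the share was 13.2% to 20.005%, for mt-Nd3 27.9% to 49.6%, and for mt-Co1 beside Gm29216 57.7% to 69.9%. With the copies added, by length, mt-Co2 averaged 13663 TPM, mt-Co3 9039, mt-Atp6 5432 and mt-Nd4l 15341 TPM in FLOX cells with vehicle, and all 13 summed to 134902 ± 2347. Values of mt-Co2, mt-Co3, mt-Atp6, mt-Nd3, mt-Nd4l and, for part of its length, mt-Co1 are therefore uncertain. No such copy above the limits used here was found for mt-Nd1, mt-Nd2, mt-Nd4, mt-Nd5, mt-Nd6, mt-Cytb and mt-Atp8. The level of mt-Atp8 stays less certain even so, since its transcript is very short. Among nuclear members, Ndufb4 shares 390 identical bases with Ndufb4c, annotated as a processed pseudogene and itself a member by name at 157 TPM, and Atp5l shares 309 with Gm10221, at 135 TPM, so the levels of Ndufb4 and Atp5l are uncertain too.

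**Figure D1:**
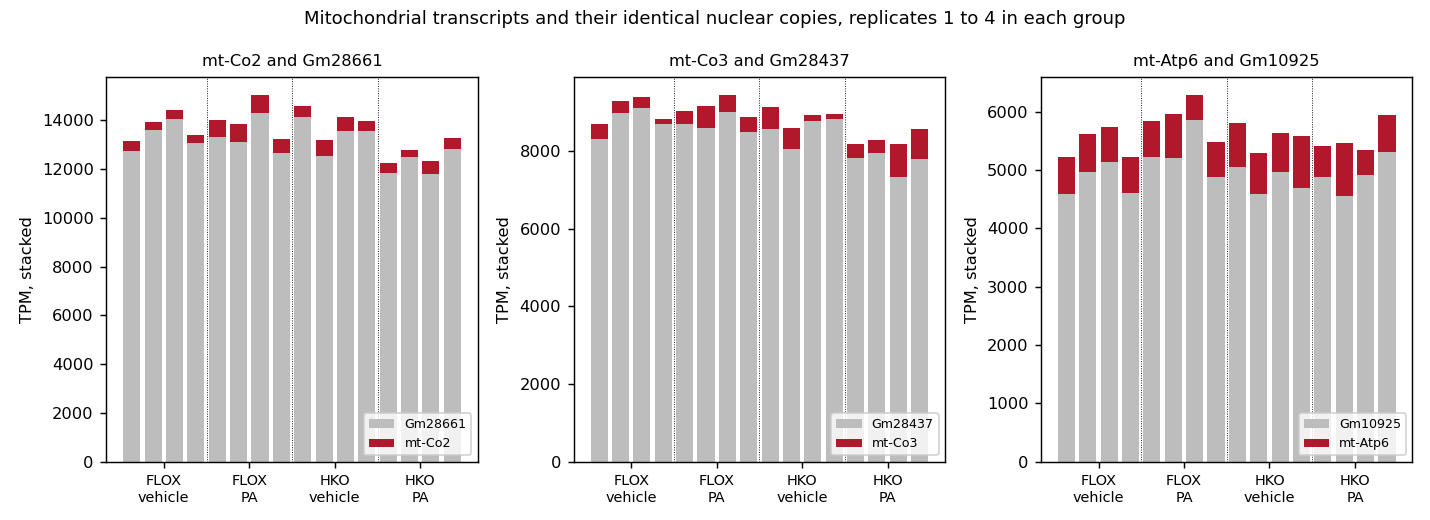
TPM of mt-Co2, mt-Co3 and mt-Atp6 (red) stacked on that of their identical nuclear copies (grey), with 1 bar for each of the 16 samples in the order of replicates 1 to 4 of each group. The copy holds most of each bar, and the red part, not the height of the bar, is the deposited value of the mitochondrial gene.

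The first comparison asked what palmitic acid did in FLOX cells. Nuclear members were lower: of the 79 tested, 18 fell (22.8%), against 11.5% of all 11858 genes tested, and 1 rose, against 23.0% of all genes. A gene was called at an adjusted p under 0.05 from limma (Benjamini-Hochberg over all genes tested, two-sided). The median log2 fold change of the nuclear members was -0.076, that of all tested genes 0.096, and 65 of 79 members had a negative value. For 12 nuclear members, every palmitic acid sample was below every vehicle sample, which held for 10.9% of all genes, and 2 were above without overlap, against 18.1%. The excess over all genes rested in part on 1 library: without FLOX palmitic acid replicate 2, 10 nuclear members fell (12.7%), near the 10.5% of all genes. Fitted on the FLOX samples alone, 9 fell (11.4%, against 10.2%), and without both FLOX samples numbered 1, 29 (36.7%, against 11.4%). All log2 fold changes here are of TPM + 1.

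Changes were small and spread over complexes I, III and V. Of the members assigned to each by name, 9 of 36 of complex I, 1 of 4 of complex II, 3 of 9 of complex III and 5 of 17 of complex V fell. In complex IV none of 13 fell by limma (0 lower at an unadjusted p under 0.05). The 36 include Ndufb4c, annotated as a processed pseudogene, which was not called in this comparison. The largest fall was that of Ndufv2, an iron-sulfur subunit of the NADH-oxidizing arm of complex I. It stood at 57.3, 63.9, 73.6 and 62.6 TPM with vehicle and 58.98, 48.5, 48.2 and 46.3 with palmitic acid. The groups overlapped only through FLOX palmitic acid replicate 1, the highest of its group at 58.98, and the log2 fold change was -0.34 ± 0.074 (± SE, limma adjusted p = 0.00206). Ndufv3, an accessory subunit of the same arm, went from 122, 133, 139.8 and 126 to 114, 107, 117 and 106 TPM, with no overlap (-0.22 ± 0.057, limma adjusted p = 0.00704). Ndufa8, a twin-cysteine accessory subunit of complex I, went from 132, 134, 145 and 139 to 128, 111, 113 and 113 TPM, again with no overlap (-0.24 ± 0.063, limma adjusted p = 0.00754).

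In the other complexes the largest fall was in the membrane ring of ATP synthase. Atp5g1, 1 of 3 genes that encode the same mature c subunit of the ring, stood at 429, 456, 476 and 498 TPM with vehicle and 405, 343, 364 and 363 with palmitic acid, and every treated sample was below every control (-0.33 ± 0.055, limma adjusted p = 0.000238). Atp5g3 did not pass the test at 684 ± 15.3 and 661 ± 12.7 TPM, nor did Atp5g2 at 16.4 ± 2.4 and 19.2 ± 2.7. The share of Atp5g1 among the transcripts of the 3 genes was 39.9 ± 1.3% with vehicle and 35.1 ± 1.3% with palmitic acid. Atp5o (-0.16 ± 0.051) and Atp5d (-0.12 ± 0.04), subunits of the stalks that join the ring to the catalytic head, fell as well (limma adjusted p = 0.0257 and 0.0319). In complex III the Rieske iron-sulfur protein Uqcrfs1 (-0.12 ± 0.033), the core protein Uqcrc2 (-0.12 ± 0.03) and cytochrome c1, Cyc1 (-0.085 ± 0.03), fell (limma adjusted p = 0.00928, 0.0069 and 0.0412). In complex II it was Sdha, the flavoprotein that oxidizes succinate, at 135, 118, 117 and 125 and 102, 111, 119.9 and 112 TPM (-0.15 ± 0.051, limma adjusted p = 0.0278); its highest treated sample, 119.9, was above its 2 lowest controls.

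A single nuclear member rose. Cox7a2l, a relative of subunit 7a that helps to join complexes III and IV into supercomplexes, stood at 114, 117, 125 and 116 TPM with vehicle and 141, 145, 137 and 144 with palmitic acid, with no overlap (0.26 ± 0.049, limma adjusted p = 0.000672). Its relatives Cox7a2 (-0.055 ± 0.069) and Cox7a1 (-0.26 ± 0.34) did not pass the test. The call on Cox7a2l in FLOX cells was lost when samples were rescaled by median ratios, at 0.16.

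**Figure D2:**
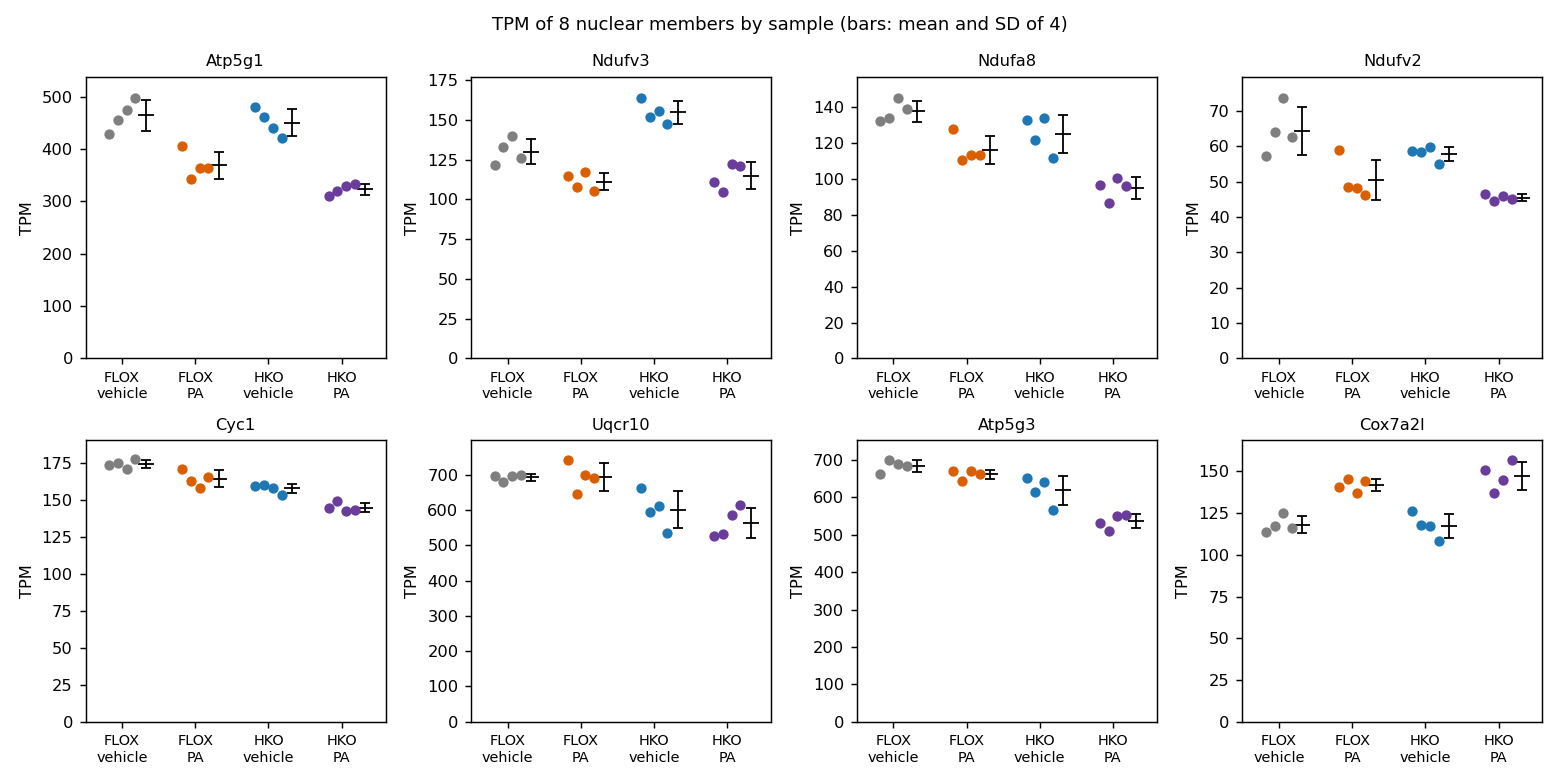
TPM of 8 nuclear members in each of the 16 samples, with the mean and SD of each group of 4 at the right of its points. Atp5g1, Ndufv3 and Ndufa8 are lower with palmitic acid in every sample of either genotype, Cox7a2l is higher in every sample, and Cyc1 is lower in HKO than in FLOX cells in every sample of either treatment.

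In HKO cells with palmitic acid 34 of the 79 nuclear members fell (43.0%), against 13.1% of all genes, and 1, again Cox7a2l, rose, against 29.4%. Their median log2 fold change was -0.12, against 0.11 for all genes, and 71 of 79 were negative. For 27 of them every treated sample was below every control, against 12.4% of all genes, and 1 was above without overlap, against 28.7%. By complex, 19 of 36 fell in complex I, 1 of 4 in II, 5 of 9 in III, 2 of 13 in IV and 7 of 17 in V. The 19 include Ndufb4c, annotated as a processed pseudogene. With the replicate number shared by the sample titles as a block in the fit, 25 of the 79 fell (31.6%, against 11.3% of all genes).

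The members with the largest falls were largely those of the FLOX comparison. Ndufv3 went from 164, 152, 156 and 147 to 111, 104, 122 and 121 TPM (-0.43 ± 0.057, limma adjusted p = 2.11e-05). Ndufa8 went from 133, 122, 134 and 112 to 96.98, 86.7, 101 and 96.3 TPM (-0.39 ± 0.063, limma adjusted p = 0.000139), and Ndufv2 from 58.6, 58.2, 59.6 and 55.1 to 46.5, 44.4, 45.98 and 45.03 (-0.34 ± 0.074, limma adjusted p = 0.00163). In none of the 3 did the groups overlap. Sdha of complex II stood at 128 ± 3.0 and 109 ± 3.6 TPM (-0.22 ± 0.051, limma adjusted p = 0.00232).

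Atp5g1 showed the largest called change of any member in HKO cells, from 480.0, 461, 440.3 and 422 to 310.2, 319.8, 329 and 333 TPM (-0.48 ± 0.055, limma adjusted p = 4.86e-06). Here Atp5g3 fell too, from 619 ± 38.0 to 537 ± 19.5 TPM (-0.20 ± 0.04, limma adjusted p = 0.000763), as did Atp5k, the small e subunit of the membrane part (-0.18 ± 0.05, limma adjusted p = 0.00911). The 3 c-subunit genes together went from 1085 ± 60.1 to 875 ± 29.6 TPM, and the share of Atp5g1 from 41.5 ± 0.88% to 36.9 ± 0.69%. In FLOX cells their sum had gone from 1165 ± 37.6 to 1049 ± 36.3 TPM.

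In complex III the small subunit Uqcr11 (-0.22 ± 0.046), Uqcrc2 (-0.17 ± 0.03) and Cyc1 (-0.12 ± 0.03) had the largest falls (limma adjusted p = 0.00137, 0.000304 and 0.00407). The 2 that fell in complex IV were Cox5b, a zinc-binding subunit (-0.15 ± 0.048, limma adjusted p = 0.0174), and Ndufa4, named for complex I but a part of complex IV (-0.13 ± 0.051, limma adjusted p = 0.0465). Cox7a2l went from 126, 118, 117 and 109 to 151, 137, 145 and 157 TPM, with no overlap (0.33 ± 0.049, limma adjusted p = 6.72e-05).

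Of the 18 nuclear members lower in FLOX cells, 15 were also lower in HKO cells (83.3% of the 18 and 44.1% of the 34). The remaining 3, singled out after their values were seen, were Ndufa10 (-0.14 in FLOX, -0.09 in HKO), Atp5f1 (-0.096, -0.062) and Atp5o (-0.16, -0.12). The genotypes share no samples, and across the 79 nuclear members (genes are not independent of each other) their log2 fold changes correlated at r = 0.70, and 67 had the same sign. The overlap, correlation and signs were not computed for all genes, so this agreement is not shown to be particular to these members. Counts that differ between genotypes are not a test of a difference. In the interaction (the HKO fold change minus the FLOX fold change, limma), none of the 79 nuclear members passed, 3 had an unadjusted p under 0.05, and 0.152% and 0.0422% of all genes were called higher and lower. Their median interaction was -0.050, against 0.015 for all genes.

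**Figure D3:**
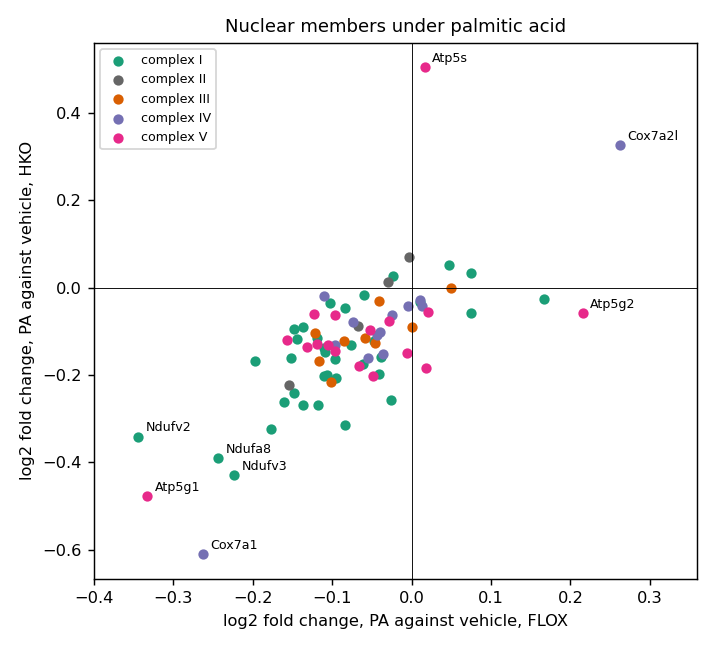
Log2 fold change of TPM + 1 with palmitic acid in FLOX cells (x axis) and HKO cells (y axis) for each of the 79 tested nuclear members, coloured by complex, with 8 named. Most points lie at the lower left, where both are negative, with Ndufv2, Ndufa8, Ndufv3 and Atp5g1 farthest out among the members called in both, and Cox7a2l alone among called members in the upper right.

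The number of falls also moved with scaling. Palmitic acid moved the median of all tested genes up, by 0.096 in FLOX and 0.11 in HKO cells, and rescaling samples by median ratios brought these medians to 0.0076 and 0.0043, a shift of 0.089 and 0.11. On that scale 66.7% higher among all called genes in FLOX cells became 45.3%, and 69.3% in HKO cells became 46.8%. The nuclear members then fell in larger number, 30 of 79 in FLOX (38.0%, against 16.8% of all genes) and 54 of 79 in HKO cells (68.4%, against 20.1%), with medians of -0.18 and -0.25. Relative to the median of all genes the nuclear members thus stood lower on either scale.

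Of the 13 mitochondrially encoded members, 1 rose and 1 fell (7.69% each) in FLOX cells with palmitic acid, against 23.0% and 11.5% of all genes. In HKO cells 2 fell (15.4%), near the 13.1% of all genes, and none rose by limma (0 higher at an unadjusted p under 0.05), against 29.4%. Their medians were -0.064 and -0.10. These counts moved with scaling. With median ratios 4 fell in FLOX (30.8%, against 16.8% of all genes) and 7 in HKO cells (53.8%, against 20.1%). With quantile normalization 0 and 1 fell, against 15.8% and 18.8% of all genes. In FLOX cells the sign of the median did too, at 0.035 with quantile normalization, and it also rested on 1 library: without palmitic acid replicate 1 it was 0.043. That library had the lowest mt-Co1 of all 16, at 27316 TPM, and the lowest sum of the 13, at 76090, while its nuclear sum of 20524 was the highest of all 16.

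In complex I, mt-Nd1 and mt-Nd6, core subunits of the membrane arm, fell in HKO cells. mt-Nd1 went from 8716, 7964, 8530.2 and 9091 to 7456, 7790.5, 7540.2 and 7590.1 TPM (-0.17 ± 0.043, limma adjusted p = 0.00417), and mt-Nd6, the only member encoded on the opposite strand, from 4045, 3700.3, 3799 and 3912 to 3384, 3432, 3466 and 3301 (-0.19 ± 0.046, limma adjusted p = 0.00409). In both every treated sample was below every control. The other core subunits did not pass the test, with log2 fold changes in FLOX and HKO cells of 0.0086 and -0.054 for mt-Nd2, 0.037 and -0.15 for mt-Nd3, -0.064 and -0.063 for mt-Nd4, -0.21 and -0.044 for mt-Nd4l, and -0.096 and -0.10 for mt-Nd5. mt-Cytb, the cytochrome b of complex III, stood at 0.095 and -0.016, and mt-Atp8 of complex V at -0.0021 and -0.17.

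Complex IV held the 2 calls in FLOX cells. mt-Co1 fell, from 34118, 33309, 33441 and 32994 to 27316, 32020.3, 32054 and 31590.3 TPM, without overlap (-0.13 ± 0.043, limma adjusted p = 0.0336). This call was lost in 10 of 28 alternatives, among them the 4 that left out a FLOX vehicle replicate. mt-Co2, which binds cytochrome c, was deposited at 425, 335, 369 and 319 TPM with vehicle and 713, 718, 709 and 588 with palmitic acid, without overlap (0.92 ± 0.17, limma adjusted p = 0.000643). With the identical copy added the difference did not pass the test: the pair stood at 13663 ± 561 and 13969 ± 731 TPM (0.031 ± 0.042, limma adjusted p = 0.594). In HKO cells the deposited mt-Co2 did not pass the test (-0.29 ± 0.17, limma adjusted p = 0.188), while the pair fell (-0.14 ± 0.042, limma adjusted p = 0.0127). mt-Co3 showed 0.65 ± 0.46 and 0.88 ± 0.46, and mt-Atp6 -0.082 ± 0.19 and -0.33 ± 0.19, without passing the test. With copies added, 5 of the 13 fell in HKO cells (38.5%, against 13.1% of all genes), more than the 2 called on deposited values. They were mt-Nd1, mt-Nd6, mt-Co2, mt-Co3 (-0.10 ± 0.03, limma adjusted p = 0.0127) and mt-Nd3 (-0.19 ± 0.065, limma adjusted p = 0.0307).

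The ribosomal RNAs of the mitochondrion, which are transcribed from the same strand as most of the coding genes, were set beside them. Their levels were far below the 31450 TPM of mt-Co1. Libraries of total RNA can differ in how much ribosomal RNA was removed, and the part of this in the values below was not tested. mt-Rnr1 rose from 541 ± 19.8 to 697 ± 54.1 TPM in FLOX cells and from 576 ± 8.1 to 824 ± 113 in HKO cells (log2 fold change 0.36 ± 0.074 and 0.51 ± 0.074, limma adjusted p = 0.0013 and 4.95e-05). mt-Rnr2 stood at 499 ± 35.9 and 607 ± 112 TPM in FLOX cells, where it did not pass the test (0.26 ± 0.12, limma adjusted p = 0.09), and rose from 499.7 ± 43.8 to 722 ± 75.6 in HKO cells (0.53 ± 0.12, limma adjusted p = 0.00171).

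**Figure D4:**
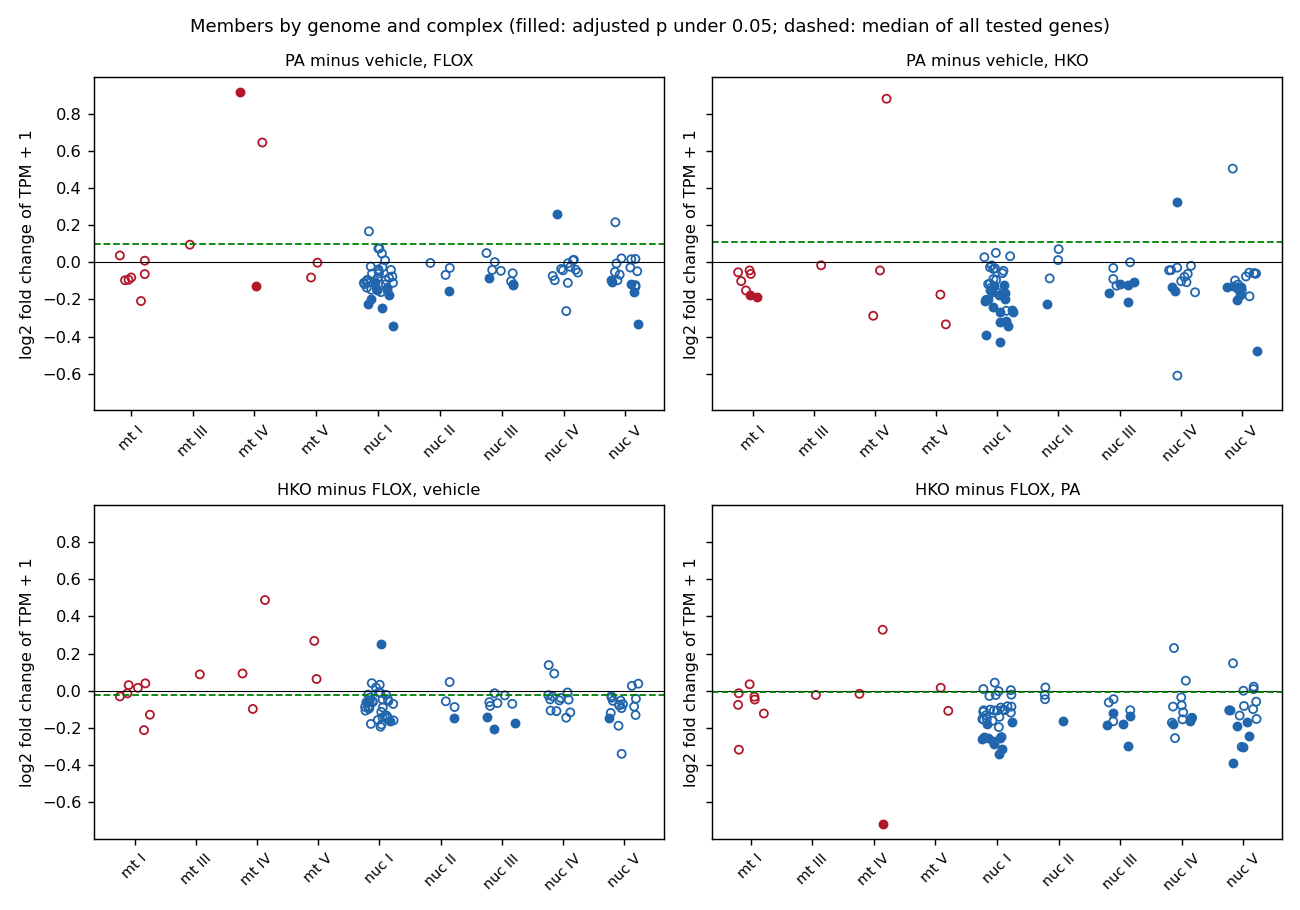
Log2 fold change of TPM + 1 for each tested member in 4 comparisons, by genome (red, mitochondrial; blue, nuclear) and complex; filled points had a limma adjusted p under 0.05, and the dashed line is the median of all tested genes. With palmitic acid most nuclear points lie below the dashed line, at 0.096 in FLOX and 0.11 in HKO cells, and between genotypes the called nuclear points lie below 0 except Ndufv3 with vehicle.

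The remaining comparisons asked how HKO cells differed from FLOX cells. With vehicle, 6 of 79 nuclear members were lower (7.59%), a share close to the 7.56% of all genes, and 1 was higher, against 4.11%. The 6 were Uqcr10 (-0.21 ± 0.061), Uqcrb (-0.18 ± 0.052) and Cyc1 (-0.14 ± 0.03) of complex III, Atp5g3 (-0.15 ± 0.04), Sdhb, the iron-sulfur subunit of complex II (-0.15 ± 0.041), and Ndufa12 (-0.16 ± 0.049; limma adjusted p = 0.0381, 0.0367, 0.00585, 0.0259, 0.0305 and 0.0408 in this order). In all 6 the groups did not overlap, which 16 nuclear members showed in this direction, against 11.7% of all genes, and 1 in the other, against 6.06%. None of these 6 calls held under median-ratio scaling. The count was 1 without FLOX vehicle replicate 2 or 3 or HKO vehicle replicate 2 or 4. It was 2 without FLOX replicate 4 and 3 without HKO replicate 3. In these runs 5.34% to 6.04% of all genes were lower. Without both FLOX samples numbered 1 the count was 13 (16.5%, against 7.8% of all genes). Ndufv3 was the exception in direction: it was higher in HKO than in FLOX cells with vehicle, at 164, 152, 156 and 147 against 122, 133, 139.8 and 126 TPM (0.25 ± 0.057, limma adjusted p = 0.00977), and it kept this call in all 30 alternatives. With palmitic acid it stood at 115 ± 8.4 and 111 ± 5.6 TPM (0.043 ± 0.057, limma adjusted p = 0.744), and the interaction was -0.21 ± 0.081 (limma adjusted p = 0.525).

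With palmitic acid, 25 of 79 nuclear members were lower in HKO than in FLOX cells (31.6%), against 5.5% of all genes, and none was higher by limma (1 at an unadjusted p under 0.05), against 4.24%. For 30 members every HKO sample was below every FLOX sample, against 7.83% of all genes, and for none was it above, against 6.11%. Their median log2 fold change was -0.12, against -0.0077 for all genes. Calls came from every complex: 10 of 36 in I (Ndufb4c among them), 1 of 4 in II, 5 of 9 in III, 3 of 13 in IV and 6 of 17 in V. The nuclear members summed to 19396 ± 839 TPM in FLOX and 17691 ± 449 in HKO cells with palmitic acid, after 20154 ± 457 and 19235 ± 709 with vehicle.

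The largest nuclear difference was in Atp5e, the small ε subunit of the central stalk of ATP synthase. It stood at 479, 407, 424 and 428 TPM in FLOX and 322, 288, 356 and 361 in HKO cells with palmitic acid (-0.39 ± 0.09, limma adjusted p = 0.0111). Atp5g3 stood at 670.3, 644, 670.4 and 662 and 532, 511, 551 and 553 TPM (-0.30 ± 0.04, limma adjusted p = 0.000109), and Atp5k differed by -0.24 ± 0.05 (limma adjusted p = 0.00507). In all 3 no HKO sample reached the lowest FLOX sample. In complex III, Uqcr10 stood at 741, 647, 698 and 690.1 and 527, 531, 586 and 614 TPM (-0.30 ± 0.061, limma adjusted p = 0.00507), and Cyc1 at 171, 163, 158 and 166 and 145, 149, 143 and 143 (-0.18 ± 0.03, limma adjusted p = 0.000924). Uqcr11 differed by -0.18 ± 0.046 (limma adjusted p = 0.017).

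In complex I the largest differences were those of the accessory subunits Ndufb5 (-0.34 ± 0.071), Ndufa3 (-0.32 ± 0.086) and Ndufa8 (-0.29 ± 0.063; limma adjusted p = 0.00574, 0.0279 and 0.00844). Ndufb5 stood at 98.95, 88.4, 93.3 and 93.3 TPM in FLOX and 82.3, 70.9, 67.8 and 74.3 in HKO cells, without overlap. In complex IV they were Ndufa4 (-0.18 ± 0.051), Cox5b (-0.16 ± 0.048) and Cox5a, a matrix-side subunit (-0.15 ± 0.042), and in complex II Sdhb (-0.16 ± 0.041; limma adjusted p = 0.0326, 0.0405, 0.0336 and 0.0174).

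The number of calls between genotypes rested on scaling and on single libraries. Under median-ratio scaling 7 of 79 nuclear members were lower in HKO cells with palmitic acid (8.86%, against 3.92% of all genes). Leaving out HKO palmitic acid replicate 2 gave 12 (15.2%, against 4.22%), and FLOX palmitic acid replicate 1 gave 14 (17.7%, against 5.33%). Leaving out HKO replicate 1 or FLOX replicate 4 gave 15 (19.0%, against 4.15% and 4.06%). In each of these runs the share of members stayed above that of all genes. Atp5e, Atp5g3, Atp5k, Cyc1, Uqcr10 and Ndufb5 kept their calls in all 30 alternatives. Nuclear members have short transcripts: their median length is 607 bases, against 1245 for all genes with a length, and 55 of 79 lie in the shortest of the 4 length classes. In that class 7.08% of genes were lower in HKO cells with palmitic acid, with a median of -0.030. After a correction of each sample for length and GC content, 13 nuclear members were lower with palmitic acid (16.5%, against 5.17% of all genes) and 1 with vehicle (1.27%, against 6.38%).

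The mitochondrially encoded members gave no call between genotypes with vehicle by limma (2 of 13, mt-Co1 and mt-Co2, had an unadjusted p under 0.05) and 1 with palmitic acid. This was mt-Co2, at 374, 309, 552 and 458 TPM in HKO and 713, 718, 709 and 588 in FLOX cells (-0.72 ± 0.17, limma adjusted p = 0.0131), or -0.15 ± 0.042 with its copy added (limma adjusted p = 0.0356). The sum of the 13 was 87759 ± 1896 and 82269 ± 2060 TPM in HKO cells with vehicle and palmitic acid and 85596 ± 7187 in FLOX cells with palmitic acid. In the interaction mt-Co2 stood at -1.20 ± 0.24 (limma adjusted p = 0.0679), and at -0.17 ± 0.059 with its copy added (limma adjusted p = 0.424).

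**Figure D5:**
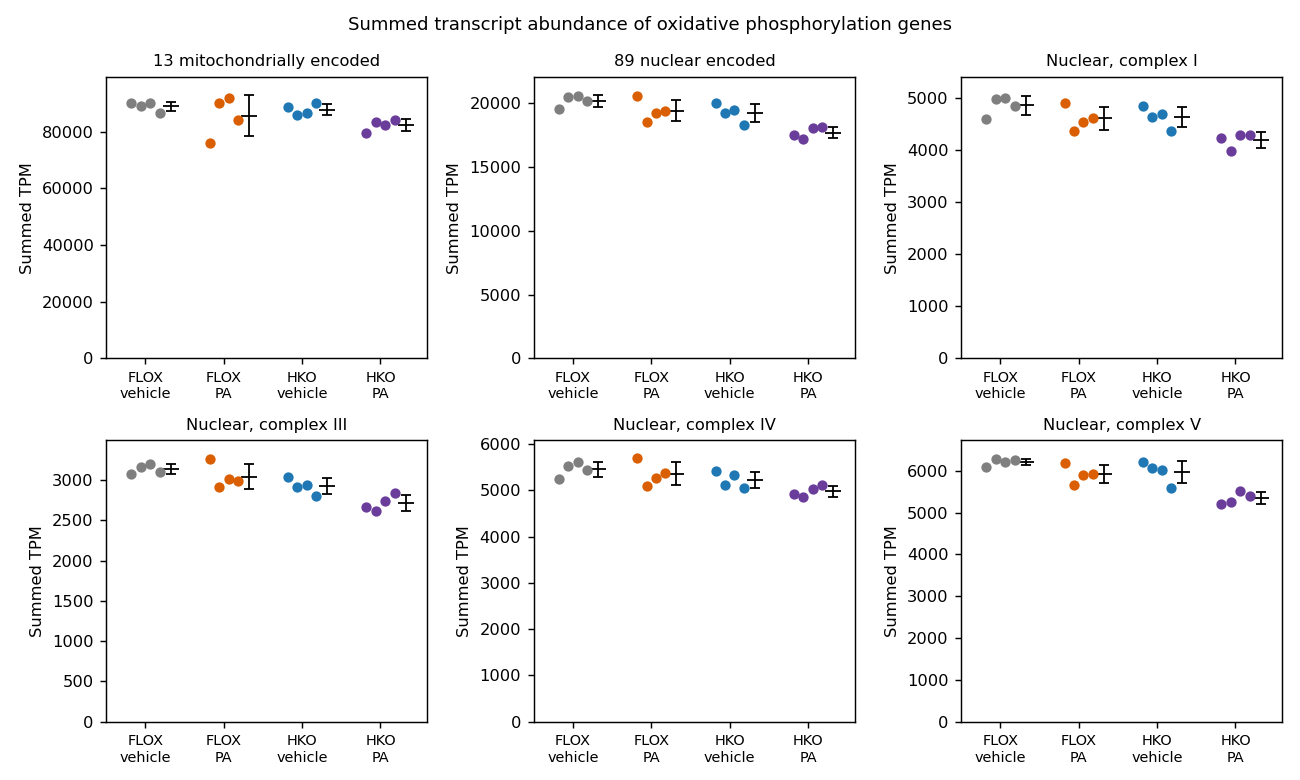
Summed TPM of the 13 mitochondrial and 89 nuclear members and of the nuclear members of complexes I, III, IV and V in each sample, with the mean and SD of each group of 4. HKO cells with palmitic acid are the lowest group in all 6 panels by mean, and FLOX palmitic acid replicate 1 is the lowest sample for the mitochondrial sum and the highest for the nuclear one.

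Genes around the complexes were counted from lists by function, to be read against the all-gene shares with palmitic acid of 11.5% lower and 23.0% higher in FLOX and 13.1% lower and 29.4% higher in HKO cells. Counts with median ratios have other all-gene shares, 16.8% lower and 13.9% higher in FLOX and 20.1% lower and 17.6% higher in HKO cells. With palmitic acid, the tricarboxylic acid cycle, which feeds the chain, gave 5 of 14 lower in FLOX (35.7%) and 7 of 14 in HKO cells (50.0%) and none higher by limma (0 and 1 higher at an unadjusted p under 0.05). Idh2, the mitochondrial NADP-dependent isocitrate dehydrogenase, fell from 73.3 ± 3.5 to 55.6 ± 0.59 TPM in FLOX and from 76.02 ± 3.6 to 52.2 ± 3.7 in HKO cells (-0.39 ± 0.051 and -0.53 ± 0.051, limma adjusted p = 2.41e-05 and 6.77e-07). Cs, citrate synthase, fell as well (-0.21 ± 0.042 and -0.24 ± 0.042, limma adjusted p = 0.00116 and 0.000241). The median log2 fold change of the list was -0.095 in FLOX and -0.076 in HKO cells.

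Of 23 electron carriers and quinone-linked enzymes, 7 were lower (30.4%) and 3 higher (13%) in FLOX and 9 lower (39.1%) and 2 higher (8.7%) in HKO cells, with medians of -0.095 and -0.20. With median ratios 11 were lower and 1 higher in FLOX and 12 lower and 1 higher in HKO cells. Chdh, a choline dehydrogenase that passes electrons to ubiquinone, fell from 12.3 ± 0.86 to 6.03 ± 0.86 and from 16.6 ± 0.46 to 7.62 ± 1.7 TPM (-0.93 ± 0.11 and -1.05 ± 0.11), and Sqor, the sulfide quinone oxidoreductase, fell too (-0.42 ± 0.042 and -0.44 ± 0.042; limma adjusted p = 1.24e-05 and 2.53e-06 for Chdh, 1.72e-06 and 7.31e-07 for Sqor). Cycs, cytochrome c, was not called with palmitic acid but was lower in HKO than in FLOX cells under either treatment (-0.21 ± 0.049 with vehicle and -0.16 ± 0.049 with palmitic acid, limma adjusted p = 0.0116 and 0.0499).

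Of 16 tested carriers and inner membrane genes, 4 were lower (25%) and 1 higher (6.25%) in FLOX and 6 lower (37.5%) and 2 higher (12.5%) in HKO cells, with medians of -0.083 and -0.12. With median ratios 9 were lower and 1 higher in either genotype. The one that rose in both was Slc25a30, an uncoupling-protein-like carrier, from 42.7 ± 5.5 to 106 ± 11.6 and from 42.6 ± 4.4 to 117 ± 9.8 TPM (1.29 ± 0.098 and 1.44 ± 0.098, limma adjusted p = 7.38e-08 and 1.75e-08). Slc25a4, an ADP/ATP carrier, fell (-0.38 ± 0.057 and -0.58 ± 0.057, limma adjusted p = 8.84e-05 and 8.82e-07). Atpif1, the inhibitor of ATP synthase, stood at 111 ± 6.7 and 101 ± 9.6 TPM in FLOX (-0.14 ± 0.061, limma adjusted p = 0.0869) and fell from 123 ± 6.3 to 106 ± 4.3 in HKO cells (-0.21 ± 0.061, limma adjusted p = 0.0121).

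Of 51 tested assembly factors, 3 were lower (5.88%) and 4 higher (7.84%) in FLOX and 9 lower (17.6%) and 5 higher (9.8%) in HKO cells with palmitic acid, with medians of -0.062 and -0.086. With median ratios 7 were lower and 2 higher in FLOX and 23 lower and 2 higher in HKO cells. Sco2, a copper chaperone of complex IV, rose (0.41 ± 0.08 and 0.43 ± 0.08, limma adjusted p = 0.00109 and 0.000498). Foxred1, a factor for complex I, fell in FLOX cells from 15.9 ± 1.6 to 12.6 ± 1.6 TPM (-0.31 ± 0.097, limma adjusted p = 0.021). In HKO cells it stood at 15.5 ± 1.0 TPM with vehicle and 12.4 ± 1.3 with palmitic acid, so the fall is not shown to be particular to FLOX cells. Between genotypes, 4 were lower with vehicle (7.84%) and 3 with palmitic acid (5.88%), near the 7.56% and 5.5% of all genes, and none was higher by limma (0 and 1 at an unadjusted p under 0.05). With median ratios 1 and 3 were lower, where 4.18% and 3.92% of all genes were. Uqcc2, a factor for complex III, was lower under either (-0.24 ± 0.071 and -0.32 ± 0.071, limma adjusted p = 0.0414 and 0.00837).

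Of 10 tested regulators of respiratory genes, 6 rose in FLOX (60%, against 23.0% of all genes) and 5 in HKO cells (50.0%, against 29.4%) with palmitic acid and none fell by limma (0 and 1 at an unadjusted p under 0.05), with medians of 0.25 and 0.31. With median ratios 3 rose in either genotype and 1 fell in HKO cells, with medians of 0.15 and 0.19. Nrf1, the nuclear respiratory factor, stood at 11.9 ± 1.5 and 15.5 ± 1.6 TPM in FLOX and 11.1 ± 1.5 and 17.03 ± 0.59 in HKO cells (0.36 ± 0.096 and 0.59 ± 0.096, limma adjusted p = 0.00822 and 0.000144). Gabpa, the DNA-binding subunit of GABP (0.26 ± 0.086 and 0.47 ± 0.086), and Pprc1, a coactivator related to PGC-1 (0.46 ± 0.11 and 0.56 ± 0.11), rose in both (limma adjusted p = 0.0265 and 0.000423 for Gabpa, 0.00415 and 0.000756 for Pprc1). The coactivator Ppargc1a, looked up after these values were seen, was too low to be tested, at 0.795 ± 0.41 and 0.367 ± 0.13 TPM in FLOX and 0.875 ± 0.24 and 0.312 ± 0.048 in HKO cells. Of 32 tested genes of mitochondrial transcription, replication and RNA handling, 6 rose (18.8%) and 1 fell in FLOX and 11 rose (34.4%) and 2 fell in HKO cells, where 23.0% and 29.4% of all genes rose (medians 0.0089 and 0.16). With median ratios 1 rose and 2 fell in FLOX and 4 rose and 5 fell in HKO cells (medians -0.086 and 0.042). Trmt10c, a subunit of mitochondrial RNase P, had the largest rise (0.49 ± 0.075 and 0.61 ± 0.075, limma adjusted p = 0.000119 and 9.04e-06).

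Of 15 genes of the mitochondrial stress response, 2 rose (13.3%) and 3 fell (20%) in FLOX and 3 rose (20%) and 4 fell (26.7%) in HKO cells. With median ratios 1 rose and 8 fell in FLOX and 1 rose and 6 fell in HKO cells. Ddit3 (CHOP), a stress-induced transcription factor, rose from 12.2 ± 1.4 to 26.8 ± 0.62 and from 13.01 ± 1.1 to 38.5 ± 8.3 TPM (1.08 ± 0.12 and 1.47 ± 0.12, limma adjusted p = 4.07e-06 and 1.01e-07), while Fgf21 (-0.72 ± 0.10 and -0.44 ± 0.10) and the asparagine synthetase Asns (-0.65 ± 0.043 and -0.53 ± 0.043) fell (limma adjusted p = 7.30e-05 and 0.00331 for Fgf21, 1.66e-08 and 1.21e-07 for Asns). Hspe1, the mitochondrial co-chaperonin, was lower in HKO cells with vehicle (-0.27 ± 0.041, limma adjusted p = 0.000452). With palmitic acid it stood at 374 ± 12.6 TPM in FLOX and 299.97 ± 13.2 in HKO cells. The difference is not shown to be particular to vehicle. Between genotypes, 5 of 15 were lower with vehicle (33.3%, against 7.56% of all genes). None was higher by limma (0 at an unadjusted p under 0.05). With palmitic acid 4 were higher (26.7%, against 4.24%), Ddit3 among them, and 3 lower (against 5.5%). With median ratios 3 were lower with vehicle, and 4 higher and 2 lower with palmitic acid. Atf4, a transcription factor of this response, was the only gene of these lists to pass the interaction (0.23 ± 0.044, limma adjusted p = 0.0485), and it did not pass with median ratios.

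Promoter sequences were at hand for 63 of the 79 tested nuclear members (RefSeq, build GRCm38.p6, 250 bases before to 50 after the start). They were searched on both strands for the core motifs of NRF1 (GCATGCG), of ETS factors such as GABP (CCGGAAG) and of YY1 (AAGATGG), counting a promoter once. The NRF1 core and its reverse complement can overlap. The NRF1 core was found in 11 of the 63 promoters (17.5%), against 4.01% of all 27025 genes with a promoter and 7.65% of the 8887 of them that were tested. The ETS core was found in 16 (25.4%, against 9.93% and 21.5%) and the YY1 core in 10 (15.9%, against 7.28% and 8.77%). Among the 28 matched members lower with palmitic acid in HKO cells, 6 held the NRF1 core, 6 the ETS core and 5 the YY1 core, and among the 35 others 5, 10 and 5. The 250 bases before the start are printed for a pair of members that fell in HKO cells and hold the NRF1 core, with the core and its overlapping reverse complement in capitals, and for Cox7a2l, which rose and holds none of the 3 cores.
Ndufa8, chr2:36049339-36049588, minus strand: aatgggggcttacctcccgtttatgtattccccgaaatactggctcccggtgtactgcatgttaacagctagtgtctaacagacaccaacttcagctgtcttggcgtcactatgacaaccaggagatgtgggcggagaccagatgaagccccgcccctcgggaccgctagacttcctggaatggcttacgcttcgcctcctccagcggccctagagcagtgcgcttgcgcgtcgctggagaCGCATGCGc
Atp5k, chr5:108434400-108434649, minus strand: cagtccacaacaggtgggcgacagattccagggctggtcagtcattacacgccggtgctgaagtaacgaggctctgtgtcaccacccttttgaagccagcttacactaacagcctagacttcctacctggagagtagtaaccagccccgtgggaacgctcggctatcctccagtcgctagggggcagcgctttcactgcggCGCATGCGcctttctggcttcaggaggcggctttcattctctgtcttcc
Cox7a2l, chr17:83514334-83514583, minus strand: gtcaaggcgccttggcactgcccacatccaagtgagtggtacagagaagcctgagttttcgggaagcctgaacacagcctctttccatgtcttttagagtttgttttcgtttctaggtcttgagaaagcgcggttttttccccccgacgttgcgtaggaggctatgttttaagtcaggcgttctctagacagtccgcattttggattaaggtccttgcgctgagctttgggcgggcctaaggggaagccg
In Ndufa8 and Atp5k the 8 capital letters read as the core on both strands. Atp5k also holds an ETS core, which is not whole within the bases printed. Atp5g1, Ndufv3 and Ndufv2, which also fell in HKO cells, hold none of the 3 cores. The printed promoters are picked examples, so they do not show that a core goes with the direction of change. A match is a description of these letters and not of a factor's binding.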

How the data were processed

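RNA from 16 samples of primary mouse hepatocytes was sequenced (4 groups of 4). The deposited values are TPM per Ensembl gene made by the authors with RSEM 1.3.3, per the submitters' processing notes. These notes name the human build GRCh38.p13, which cannot be that of mouse gene IDs; the mouse build is not given in the sources used here. Symbols matched 52083 of 55416 IDs (94.0%). TPM keeps no depth, so counting error is unknown.

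Log2(TPM + 1) of genes with at least 1 TPM in at least 4 samples was fitted for all 16 samples together with limma 3.58.1 (R 4.3.3, mean-variance trend), with Benjamini-Hochberg adjustment over 11858 genes and a threshold of 0.05. The fit was tested on simulated data. No setting or outcome of that is given here, so it says nothing of how well the fit suits these values. Copies were sought with blastn 2.17.0 in GENCODE M21 transcripts (at least 95% identity over 200 bases, 1 TPM in any sample).

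Named were the mitochondrial members, the 3 largest called changes per complex, direction and comparison, the isoform pairs, the most and least abundant members, the inhibitor Atpif1, Smpd3, and 3 called genes per related list. Some list genes were then looked up in the other comparisons. The members and lists were chosen with earlier results of these data known. The erythroid markers summed to 21.1 to 25.1 TPM and muscle markers to 1.30 to 6.23 TPM. Alternatives covered pseudocount, filter, scaling, trend, samples fitted, replicate block, quality weights and each replicate left out; adding copies and correcting for length and GC content were chosen after seeing the data.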

Additional observations from a re-analysis of the deposited data

Results flagged for a closer look

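In 192 groups of 4 samples, of single members or of summed TPM, 13 had a highest or lowest sample set far from the other 3 (a gap, as a share of the group's range, over Dixon's critical value); chance flags about 1 in 20 groups. FLOX palmitic acid replicate 1 was such a sample 6 times. It was the highest of its group for Atp5d (431.05 TPM), Ndufa4 (584.82) and Ndufa8 (127.83). It was the lowest for Uqcrc2 (126.23), mt-Co1 (27316.14) and the summed mitochondrial subunits of complex IV (28373.33). FLOX vehicle replicate 1 was the lowest for Ndufa12 (217.78 TPM) and Ndufb5 (82.63). Single samples in other groups were FLOX vehicle replicate 4 for Uqcrc2 (highest, 144.03 TPM), FLOX vehicle replicate 3 for mt-Nd4 (highest, 7058.85) and FLOX palmitic acid replicate 4 for mt-Co2 (lowest, 588.07). Among sums, nuclear complex I was lowest in HKO palmitic acid replicate 2 (3969.91 TPM) and nuclear complex II highest in HKO vehicle replicate 4 (491.17).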

How the results depend on the processing

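No member called in any comparison changed sign in any alternative run, with mt-Co1 in FLOX cells at 0 under quantile normalization. Calls kept in every alternative numbered 23 of 35 nuclear members for palmitic acid in HKO cells, 8 of 19 in FLOX cells, 1 of 7 between genotypes with vehicle and 6 of 25 with palmitic acid. Of the mitochondrial calls, 0 of 2 were kept in FLOX cells, 1 of 2 in HKO cells and 1 of 1 between genotypes with palmitic acid. For each change below the cause was not tested.

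For palmitic acid in FLOX cells, nuclear members lower numbered 30 with median ratios (38.0%, against 16.8% of all genes), 9 with only the groups compared (11.4%, against 10.2%), 31 with quality weights (39.2%, against 13.1%), 31 with the length and GC correction (39.2%, against 16.7%) and 29 without both FLOX samples numbered 1 (36.7%, against 11.4%); nuclear members higher numbered 0 with median ratios and 2 with only the groups compared. Mitochondrial members lower numbered 4 with median ratios or the length and GC correction (30.8%, against 16.8% and 16.7% of all genes). They numbered 2 with quality weights (15.4%, against 13.1%). There were 0 with no filter, quantile normalization, no trend or only the groups compared (against 4.91% to 15.8% of all genes). Mitochondrial members higher numbered 3 with quantile normalization (against 16.1%) and 0 with copies added (against 23.0%).

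For palmitic acid in HKO cells, nuclear members lower numbered 54 with median ratios (68.4%, against 20.1% of all genes) and 25 with the replicate block (31.6%, against 11.3%). Mitochondrial members lower numbered 7 with median ratios (53.8%, against 20.1% of all genes) and 1 with quantile normalization. They numbered 5 with copies added (38.5%, against 13.1%) and 8 with the length and GC correction (61.5%, against 19.3%). The count was 4 with only the groups compared, with quality weights or without both FLOX samples numbered 1 (30.8%, against 12.8%, 14.1% and 14.1% of all genes).

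Between genotypes with vehicle, nuclear members lower numbered 0 with median ratios, where 4.18% of all genes were lower. They numbered 2 of 83 with no filter (2.41%, against 2.62% of all genes) and 3 with quantile normalization (3.8%, against 5.53%). The count was 1 with no trend (1.27%, against 6.63%) and 1 with the length and GC correction (1.27%, against 6.38%). Quality weights gave 17 (21.5%, against 10.8%), and leaving out both FLOX samples numbered 1 gave 13 (against 7.8%). Mitochondrial members lower numbered 1 with quantile normalization, only the groups compared, quality weights or without both FLOX samples numbered 1 (7.69%, against 5.53% to 10.8% of all genes). There was 1 higher with quality weights or the length and GC correction (against 6.68% and 5.41% of all genes). With palmitic acid, nuclear members lower numbered 7 with median ratios (8.86%, against 3.92% of all genes) and 15 of 83 with no filter (18.1%, against 2.07%). They numbered 15 with quantile normalization or no trend (19.0%, against 5.11% and 4.6%). Only the groups compared gave 10 (12.7%, against 2.95%) and the length and GC correction 13 (16.5%, against 5.17%). Mitochondrial members lower numbered 4 with quantile normalization (30.8%, against 5.11% of all genes). They numbered 2 with copies added or without both FLOX samples numbered 1 (15.4%, against 5.52% and 6.42%). In the interaction 1 mitochondrial member was lower with a filter of 5 TPM, quality weights or the length and GC correction.

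Leaving out each replicate gave 10 to 26 nuclear members lower with palmitic acid in FLOX cells (10 without FLOX palmitic acid replicate 2) and 27 to 38 in HKO cells. Between genotypes it gave 1 to 9 lower with vehicle and 12 to 27 with palmitic acid. Of all genes, 10.1% to 11.8%, 11.6% to 13.7%, 5.34% to 8.77% and 4.06% to 5.68% were lower, in this order. Nuclear members higher in treated HKO cells numbered 1 to 2. With vehicle the count was 1 without FLOX replicate 2 or 3 or HKO replicate 2 or 4, 2 without FLOX replicate 4 and 3 without HKO replicate 3. Mitochondrial members lower ranged from 0 to 2 and higher from 1 to 2 in FLOX cells, and lower from 2 to 4 in HKO cells, 0 to 1 and 1 to 2 between genotypes with vehicle and palmitic acid, and 0 to 1 in the interaction.

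The deviations of same-numbered samples were weakly correlated (r from -0.15 to 0.0861 between treatments and -0.112 to 0.112 between genotypes). With 4 samples per group this cannot decide whether same-numbered samples share an animal or culture, which the labels do not say. With the replicate number as a block, nuclear members lower numbered 10 with palmitic acid in FLOX cells (12.7%, against 9.74% of all genes). In HKO cells they numbered 25 (31.6%, against 11.3%), fewer than the 34 of the main fit. Between genotypes they numbered 1 with vehicle (1.27%, against 5.3%) and 14 with palmitic acid (17.7%, against 3.69%). Nuclear members higher numbered 2 in treated HKO cells (against 24.4%), and mitochondrial members lower 0 in FLOX cells (against 9.74%).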
